A study of Mus musculus with 2 samples.

Results

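The miRNA genes described here lie in or beside imprinted genes: Mir335 in Mest, Mir483 in Igf2, Mir675 in H19, and Mir296 and Mir298 near Gnas. They were chosen by name and position and are 5 of the 1973 miRNA genes in the count tables. The tissue was whole bladder of newborn mice (strain B6NCrl, postnatal, age 0 days), with 1 library from 1 bladder of each of 2 littermates, pup 2 and pup 1. Both libraries belong to the same group. The labels name no treatment, mutation or transgene, and sex was not recorded. The levels below therefore describe 1 tissue at 1 age, and the comparison of pup 2 with pup 1 is a measure of spread between littermates, without a p-value because each side has 1 library.

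Imprinted genes are transcribed mainly from the copy inherited from one parent, and many of them act on growth before and after birth. A miRNA inside such a gene is usually cut from the same transcript. Mest, which encodes a protein of the hydrolase fold family and is strongly expressed in embryonic mesoderm, and Igf2, a fetal growth factor, are expressed from the paternal copy. H19, a long non-coding RNA, is expressed from the maternal copy, and the transcript that yields Mir296 and Mir298 from the paternal one. Parental origin was not measured in these libraries.

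Each count is given per gene, so the arms of a hairpin cannot be told apart. Mature strands and other short fragments of the hairpin cannot be told apart either. The annotated mature sequences follow, with the seed, the bases 2 to 8 that pair with target mRNAs, in capitals (RefSeq, GRCm38.p6, all 5 genes matched):
miR-335-5p: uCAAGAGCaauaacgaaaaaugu
miR-335-3p: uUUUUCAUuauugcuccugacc
miR-483-5p: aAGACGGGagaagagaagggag
miR-483-3p: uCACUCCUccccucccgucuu
miR-675-5p: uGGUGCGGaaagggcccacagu
miR-675-3p: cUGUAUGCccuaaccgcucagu
miR-296-5p: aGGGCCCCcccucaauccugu
miR-296-3p: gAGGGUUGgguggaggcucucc
miR-298-5p: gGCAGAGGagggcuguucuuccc
miR-298-3p: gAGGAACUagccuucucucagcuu

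The 10 mature strands carried 10 different seeds, so no 2 of these miRNAs belong to the same seed family. None of the 10 seeds occurred in another of the 1738 mature mouse sequences of the table. The members are also unlike in base composition. The miR-335 strands are rich in A and U, with a G and C content of 30.4% for miR-335-5p and 36.4% for miR-335-3p, against a median of 52.2% over all 1738 sequences. The miR-296 strands lie at the other end, at 66.7% for miR-296-5p and 68.2% for miR-296-3p, and miR-296-5p holds a run of 7 C. The longest stretch that any of the 5 hairpins shares with one of the 1004 other hairpins of the table was 11 bases for Mir335, Mir483, Mir675 and Mir296, and 12 bases for Mir298. Reads that mapped to several places were tallied apart from the genes in both tables; other genomic copies of these sequences were not searched for, since only annotated hairpins were compared.

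The hairpins of the most and the least abundant member are shown to set the arms, in capitals, into the counted gene. The Mir335 hairpin spans chr6:30741299-30741396 on the plus strand and the Mir675 hairpin chr7:142577064-142577147 on the minus strand:
Mir335 hairpin: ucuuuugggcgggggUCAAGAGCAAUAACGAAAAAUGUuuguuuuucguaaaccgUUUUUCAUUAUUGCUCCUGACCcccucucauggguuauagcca
Mir675 hairpin: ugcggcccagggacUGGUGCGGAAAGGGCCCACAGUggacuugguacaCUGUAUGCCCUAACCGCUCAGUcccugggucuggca

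The libraries held 3636650 sense-strand gene counts for pup 2 and 7460621 for pup 1. Levels are counts per 1000000 of these totals (CPM). Brackets beside a CPM give exact 95% binomial intervals, which cover counting error alone. Reads without molecular identifiers are not independent molecules, so these and the other counting intervals may be too narrow even for that. Markers of the labelled tissue were present: Mir143 and Mir145a of smooth muscle together had 535290 CPM in pup 2, against 538292 CPM in pup 1, and Mir200c, Mir205 and Mir429 of the urothelium 10443 CPM in pup 2, against 10586 CPM in pup 1. All 5 imprinted-locus genes were detected, with at least 1 CPM and 3 counts in both pups, as were 17% of all genes in the table (335 of 1973). From the lowest to the highest of the 5 genes the mean level differed 870.1-fold, and the order of the genes was the same in both pups. Summed, they made up 1.97% of counts in pup 2 and 1.95% in pup 1.

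Mir335, which lies in an intron of Mest on the same strand and is studied as a suppressor of metastasis in human breast cancer cells, was by far the most abundant. It had 62408 counts in pup 2, or 17161 CPM (17028 to 17295), and 123733 counts in pup 1, or 16585 CPM (16493 to 16677). Its mean was 16873 ± 407.3 CPM (SD, n = 2), which is 1.69% of all sense-strand gene counts and rank 12 in either pup. Mir143 alone held 52.5% of the counts in that total; without it in the total the mean of Mir335 was 35506 CPM, and with all reads as the total 11026 CPM. Mir335 made up 87.0% of the counts of the 5 genes in pup 2 and 84.8% in pup 1. In the order of all genes, Mir23b at 18650 ± 1429 CPM and Mir23a at 18514 ± 147.3 CPM stood next above it, and Mir145a at 11981 ± 199.2 CPM and Mir130a at 8462 ± 432.8 CPM next below. None of these 4 neighbours overlapped with Mir335 between the pups. Mir22, at rank 9 by mean, came nearest in pup 2, at 17315 CPM against 17161 CPM for Mir335. That gap is smaller than the difference of Mir335 between the pups. The rank was thus the same in both libraries but is not shown to exceed the spread between littermates.

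Mir296 and Mir298 came next. They lie on chromosome 2, Mir296 (ENSMUSG00000065521.1) at chr2:174267047-174267125 and Mir298 (ENSMUSG00000065410.1) at chr2:174267504-174267585, both on the minus strand with 378 bases between them. No other annotated gene overlaps either in GENCODE M21; the annotated end of Nespas, the antisense transcript of the Gnas locus, is 13.7 kb from Mir298 and 14.1 kb from Mir296, on the same strand. Mir296, a miRNA linked to blood vessel growth in human endothelial cells, had 4899 counts in pup 2, or 1347 CPM (1310 to 1385), and 11343 counts in pup 1, or 1520 CPM (1493 to 1549). Mir298 had 3482 counts in pup 2, or 957.5 CPM (925.9 to 989.8), and 8265 counts in pup 1, or 1108 CPM (1084 to 1132). The means were 1434 ± 122.5 CPM for Mir296 and 1033 ± 106.3 CPM for Mir298 (SD, n = 2 each), at ranks 53 and 67. These ranks were not resolved: Mir296 was at rank 57 in pup 2 and 53 in pup 1 and overlapped between the pups with 3 of its 4 nearest genes (Mir182, Mir93 and Mir20a, not Mirlet7f-2), and Mir298 was at rank 71 in pup 2 and 63 in pup 1 and overlapped with all 4 (Mir425, Mir467e, Mir181c and Mir423). Both genes were lower in pup 2, and Mir296 exceeded Mir298 in each pup.

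Mir483 lies in introns of Igf2 and of the overlapping gene Gm49394 at chr7:142654924-142654996, on the minus strand as they do (ENSMUSG00000070140.1). It is known for its high level in human Wilms tumours, a kidney tumour of childhood. It had 892 counts in pup 2, or 245.3 CPM (229.4 to 261.9), and 2342 counts in pup 1, or 313.9 CPM (301.3 to 326.9). Its mean of 279.6 ± 48.5 CPM (SD, n = 2) put it at rank 117. The SD was 17.4% of the mean, the widest relative spread among the 5 genes, against a median of 7.37% over the 335 detected genes. Its level overlapped between the pups with those of all 4 nearest genes in the order, Mir341, Mir3071, Mir221 and Mir152, so its exact rank was not resolved.

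Mir675 was the least abundant. It lies within an exon of H19 in 3 of the 7 annotated H19 transcripts (ENSMUSG00000076275.1), and in the mouse placenta it is known to restrain growth when it is released from H19. It had 65 counts in pup 2, or 17.9 CPM (13.8 to 22.8), and 156 counts in pup 1, or 20.9 CPM (17.8 to 24.5). The mean was 19.4 ± 2.15 CPM (SD, n = 2), at rank 219, with Mir3072, Mir412, Mir103-2 and Mir669e as the nearest genes, all overlapping with it between the pups. The counts stood above the limit that a count of 0 allows, 3 counts per library, which is 0.825 CPM in pup 2 and 0.402 CPM in pup 1. Whether they came from the mature strands or from other short fragments of H19 was not tested.

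**Figure D1:**
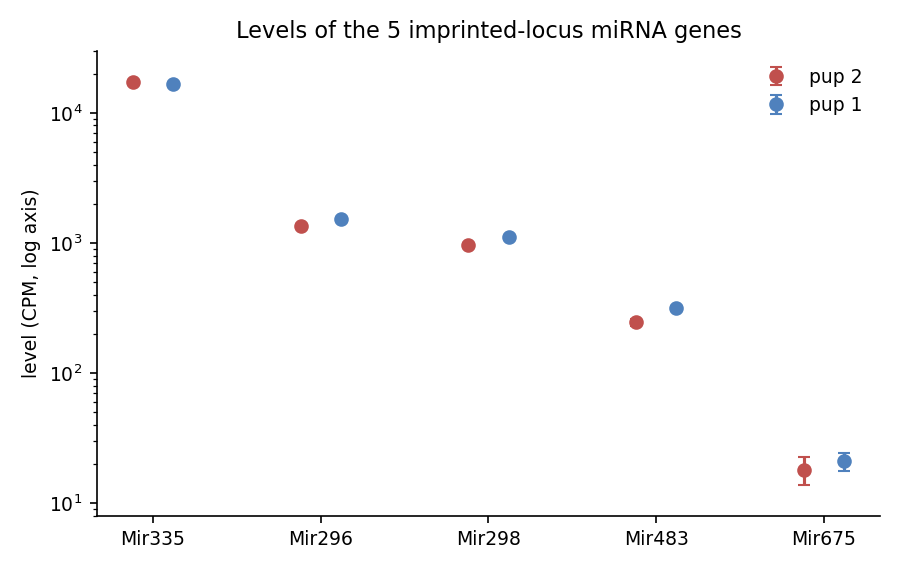
Level of each gene in pup 2 and pup 1, in CPM on a log axis, with exact 95% binomial intervals as bars (smaller than the points for 4 of the genes). Mir335 sits near 17161 and 16585 CPM and Mir675 near 17.9 and 20.9 CPM, and the order of the genes is the same in both pups.

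**Figure D2:**
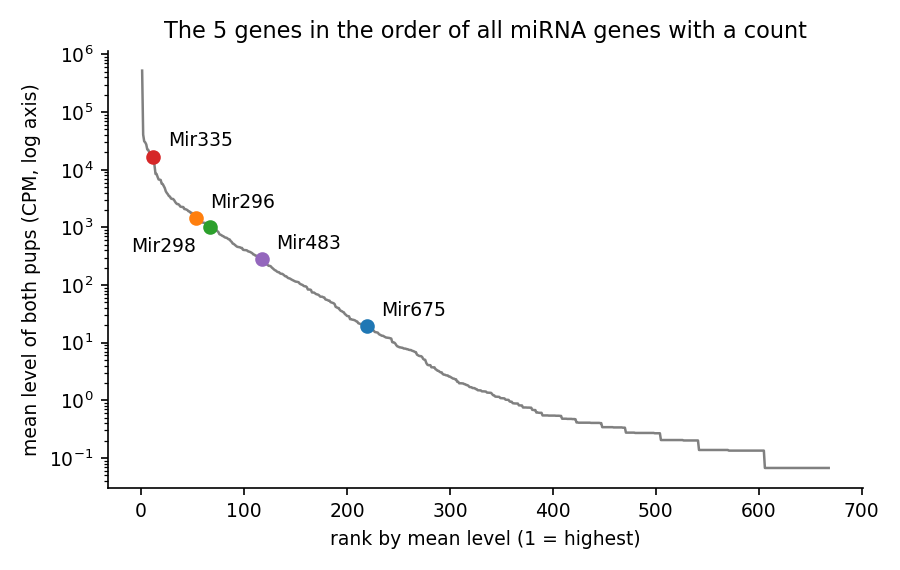
Mean level over both pups (CPM, log axis) against rank for every miRNA gene with a count; the 5 genes are marked. Mir335 stands at rank 12 on the steep part of the curve, and Mir296, Mir298, Mir483 and Mir675 follow at ranks 53, 67, 117 and 219.

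In counts within a library, Mir335 had 12.7 times the counts of Mir296 in pup 2 (12.4 to 13.1) and 10.9 times in pup 1 (10.7 to 11.1). Mir298 had 3.90 times the counts of Mir483 in pup 2 (3.63 to 4.21) and 3.53 times in pup 1 (3.37 to 3.70). The intervals did not overlap for Mir335 over Mir296 and did overlap for Mir298 over Mir483.

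The Igf2 and H19 genes are neighbours that share enhancers and an imprinting control region and are expressed from opposite parental copies. Their miRNA genes, Mir483 and Mir675, lie 77.8 kb apart. Mir483 had 13.7 times the counts of Mir675 in pup 2 (10.7 to 17.9) and 15.01 times in pup 1 (12.8 to 17.8), with overlapping intervals. The host transcripts were not measured, and in whole tissue fewer cells that make a miRNA and less of it per cell cannot be told apart. Counts of different sequences were also compared without calibration to known amounts of RNA.

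Mir296 and Mir298 were the closest in level of the 5 genes. Mir296 had 1.41 times the counts of Mir298 in pup 2 (1.35 to 1.47) and 1.37 times in pup 1 (1.33 to 1.41), a mean of 1.39 ± 0.024 (SD, n = 2). Among 64 pairs of adjacent detected miRNA genes on the same strand with less than 1000 bases between them, the fold between the mean levels had a median of 5.85, with quartiles of 1.91 and 26.3, and 8 pairs had a smaller fold than Mir296 and Mir298. The log2 ratios of pup 2 over pup 1 for Mir296 and Mir298 differed by 0.036, against a median difference of 0.17 over the 64 pairs, and 8 pairs differed less. Pairs that share a transcript, pairs with near-identical copies and pairs at low counts are all among the 64, so these values give the place of Mir296 and Mir298 in that range and no test.

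**Figure D3:**
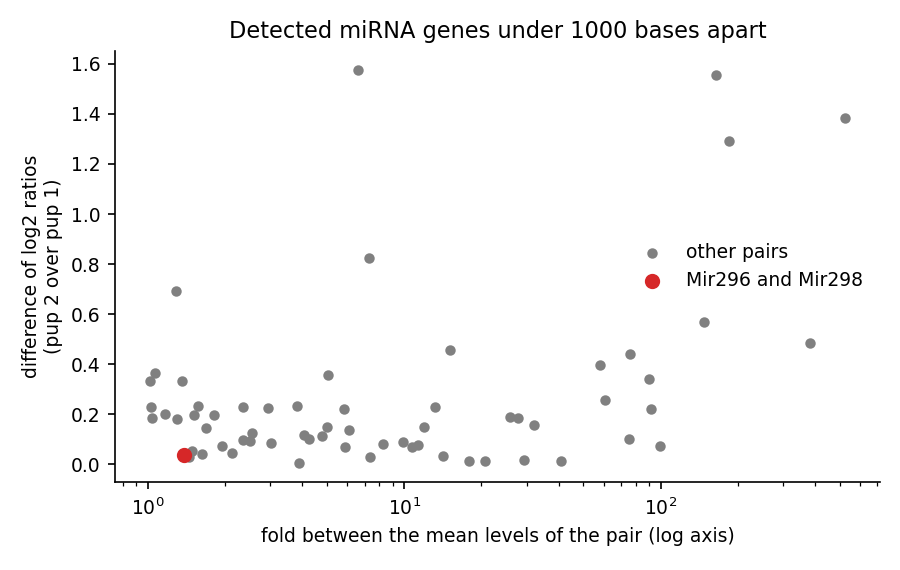
Each point is a pair of adjacent detected miRNA genes under 1000 bases apart on the same strand (64 pairs), with the fold between their mean levels (log axis) against the absolute difference of their log2 ratios of pup 2 over pup 1. Mir296 and Mir298 lie at a fold of 1.39 and a difference of 0.036, in the lower left of the cloud.

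Between the littermates, Mir335 was nearly level and the other genes were lower in pup 2. The log2 ratio of pup 2 over pup 1 was 0.05 for Mir335, -0.17 for Mir296, -0.21 for Mir298, -0.36 for Mir483 and -0.23 for Mir675. As linear ratios with exact 95% counting intervals, Mir335 stood at 1.03 (1.02 to 1.04), Mir296 at 0.886 (0.857 to 0.916), Mir298 at 0.864 (0.830 to 0.899), Mir483 at 0.781 (0.723 to 0.844) and Mir675 at 0.855 (0.630 to 1.15). The interval for Mir675 included 1, so a difference was not detectable at its depth.

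None of the 5 genes differed by 1.5-fold or more. Of the 362 genes with at least 10 counts over both libraries, 16% did (58 genes), and of the 248 with at least 100 counts, the range to which these 5 genes belong, 4.44% did (11 genes). Of the 5 genes, 4 were lower in pup 2, against 48.9% of the 362 genes (177). The interval lay wholly below 1 for 3 of the 5, Mir296, Mir298 and Mir483, and for 20.7% of the 362 genes (75). It lay wholly above 1 for Mir335 and for 19.9% of the 362 genes (72). An interval narrows with depth, and only 248 of the 362 genes had at least 100 counts. These shares are thus not matched in depth to the 5 genes, and no excess is read from them. The median log2 ratio was -0.21 over the 5 genes and 0.01 over the 362. With TMM library sizes the log2 ratio of Mir335 was 0.01, so its small excess in pup 2 depends on the scaling. In each of the 4 other genes the ratio stayed below 0 under every scaling tried.

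Some markers of other cell types differed more between the pups than these genes did. Mir122, of liver, had 31.6 CPM in pup 2, against 111.8 CPM in pup 1. The 4 blood genes Mir223, Mir451a, Mir144 and Mir150, all detected, had a sum of 2229 CPM in pup 2, against 1071 CPM in pup 1. Most of that difference lay in Mir223, at 1274 CPM in pup 2, against 396.2 CPM in pup 1. In the same order, Mir144 had 471.0 against 288.3 CPM, Mir451a 452.3 against 357.1 CPM and Mir150 31.9 against 29.1 CPM. The endocrine genes Mir375 and Mir7b, both detected, had 83.3 CPM in pup 2, against 30.0 CPM in pup 1. The gut and kidney genes Mir192, Mir194-1 and Mir215, all detected, had 108.3 CPM in pup 2, against 74.0 CPM in pup 1. Of the skeletal and cardiac muscle genes Mir206, Mir208b, Mir499 and Mir133b, 3 of 4 were detected. The sum of the 4 was 70.1 CPM in pup 2, against 88.6 CPM in pup 1, but the genes differed in direction. Mir499 had 10.2 CPM in pup 2, against 3.62 CPM in pup 1. Mir206 had 6.87 against 11.1 CPM and Mir208b 52.5 against 73.3 CPM, likewise pup 2 against pup 1. Of the neuron and glia genes Mir124a-1, Mir137, Mir338 and Mir219a-1, 3 of 4 were detected, with 105.6 CPM in pup 2, against 103.2 CPM in pup 1, and Mir124a-1 at 0 counts in both. Their part in the levels of the 5 genes was not tested.

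**Figure D4:**
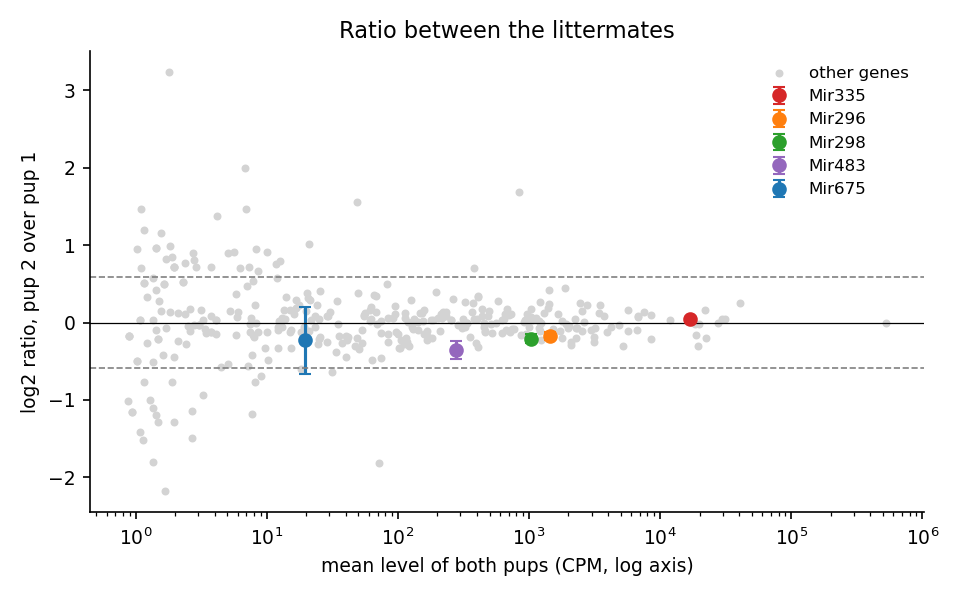
Log2 ratio of pup 2 over pup 1 against mean level (CPM, log axis) for the 362 genes with at least 10 counts; the 5 genes are coloured, with exact 95% counting intervals, and dashed lines mark 1.5-fold. All 5 points lie inside the dashed lines, Mir335 at 0.05 and Mir483 lowest at -0.36.

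Set beside the large imprinted clusters, the 5 genes were few, and 1 of them, Mir335, reached a higher level. The region between Dlk1 and Dio3 on chromosome 12 holds 59 genes of the table, of which 44 were detected, and the Sfmbt2 gene on chromosome 2 holds 107, of which 11 were. Mir335 alone, at 16873 CPM, exceeded the highest gene of each, Mir411 at 5731 ± 315.5 CPM and Mir467d at 1242.9 ± 0.017 CPM. The sums over each whole group were 19729 CPM in pup 2, against 19548 CPM in pup 1, for the 5 genes, 28016 CPM against 30846 CPM, likewise pup 2 against pup 1, between Dlk1 and Dio3, and 3906 CPM against 3731 CPM within Sfmbt2. The 5 genes thus held 37.1% of the counts of the 3 groups together, and Mir335 alone 31.9%. Without Mir335, the 4 other genes summed to 2568 CPM in pup 2, against 2963 CPM in pup 1, less than within Sfmbt2 in each pup. The median level over all genes of a group was 1033 CPM for the 5 genes, 50.6 CPM between Dlk1 and Dio3 and 0 within Sfmbt2. All 5 genes were detected, and over detected genes alone the cluster medians were 136.7 CPM between Dlk1 and Dio3 and 131.7 CPM within Sfmbt2. Reads that mapped to several places are in none of these values. The groups were not tested against each other.

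Most genes between Dlk1 and Dio3 were lower in pup 2, while the log2 ratios within Sfmbt2 lay near those of all genes. The difference between the clusters was not tested. Over all 362 genes, 48.9% were lower in pup 2 and 16% were past 1.5-fold, with a median of 0.01. Of the 46 genes between Dlk1 and Dio3 with at least 10 counts, 38 were lower in pup 2, with a median log2 ratio of -0.15 and 2 genes past 1.5-fold. Of 11 such genes within Sfmbt2, 4 were lower in pup 2, with a median of 0.05 and 1 gene past 1.5-fold.

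**Figure D5:**
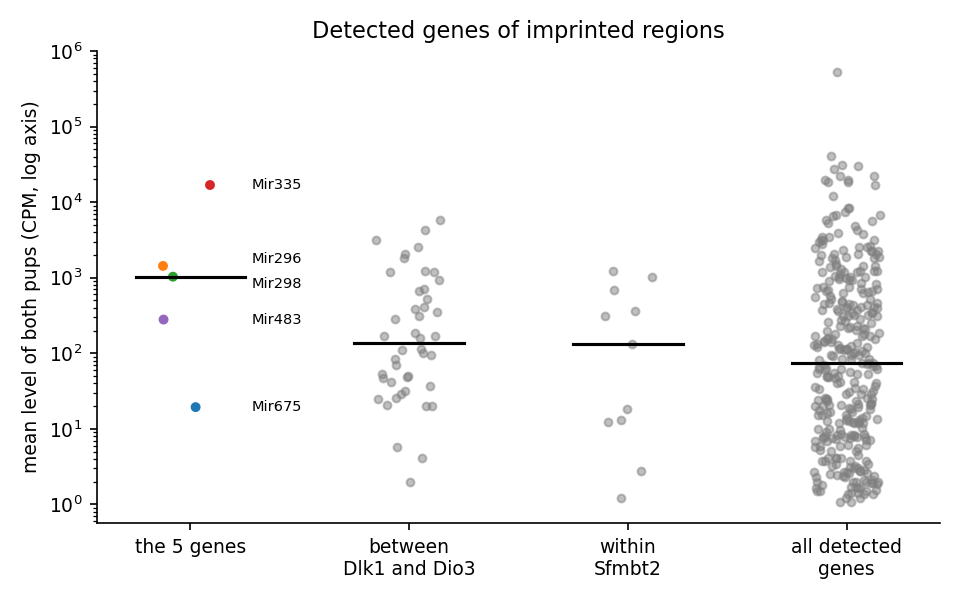
Mean level over both pups (CPM, log axis) of the detected genes among the 5, between Dlk1 and Dio3 (44 genes), within Sfmbt2 (11 genes) and in the whole table (335 genes); horizontal bars are medians over detected genes. Mir335 lies above every point of both clusters, and Mir675, at 19.4 CPM, lies below the median of each group shown.

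Counts on the strand opposite these genes were all but absent. Mir335 had 1 such count in pup 1 and none in pup 2, and the other 4 genes had none in either pup. Counting both strands thus added 1 count to the 5 genes. Of all gene counts, 3.18% in pup 2 and 3.17% in pup 1 lay opposite to the annotated gene. The lack of such counts is not particular to the 5 genes, since abundant genes such as Mir143 and Mir99a had none either. Opposite Mir299b lay 4127 counts in pup 2 and 9916 in pup 1, and opposite Mir497b 4128 in pup 2 and 8412 in pup 1.

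Other miRNA genes near the members were few. Within 1 Mb of Mir335 lay the cluster of Mir182, Mir96 and Mir183, miRNAs of sensory and other epithelia, on the opposite strand at 572 to 575 kb. They had means of 1532 ± 58.7, 458.0 ± 28.2 and 747.6 ± 30.2 CPM. Mir335 exceeded each of these 3 genes at least 11.0-fold in mean level. The rest of that window, named after its values were seen, held Mir29a at 374.1 ± 47.3 CPM and Mir29b-1 at 4.07 ± 0.073 CPM, about 321 to 322 kb away on the other side, and Gm23049 with no count. Mir29b-1 had 15 counts in pup 2 and 30 in pup 1, so its SD understates its counting error. Within 1 Mb of both Mir483 and Mir675, Mir3104 had no count and Mir7064 had 0 counts in pup 2, against 8 in pup 1. Mir7063, within 1 Mb of Mir675, had 0 counts in pup 2, against 5 in pup 1. Within 1 Mb of Mir296 and Mir298, Mir6340 and Gm27591 had no count in either pup.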

How the data were processed

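MicroRNA-seq of total RNA (RNA under 30 nucleotides, per the labels) was measured in 2 libraries of newborn mouse bladder. The authors deposited 1 table per library of raw counts per miRNA gene, not normalized, aligned to mm10 with GENCODE M4 genes, per the deposited README text. Aligner, counting tool and filters: not given in the sources used here. Without a header, strands were read from the values: one column is the sum of the other two, and of those the one with nearly all gene counts was taken as sense. Unassigned totals stayed out of library sizes: in pup 2, 7.32% of reads were unmapped, 24.8% multimapped and 3.07% outside genes, against 8.19%, 22.7% and 3.22% in pup 1.

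Symbols and positions came from GENCODE M21 on GRCm38, the assembly mm10 names (1894 of 1973 gene IDs matched), and sequences from RefSeq. Log2 ratios (pup 2 over pup 1) used a prior count of 0.5. Linear ratios have exact conditional binomial intervals, tested on simulated Poisson counts, which hold no spread beyond counting. With 1 library a side no edgeR test was run. Alternatives used TMM (edgeR 4.0.16), DESeq2 1.42.0 size factors, both strands, other totals, filters and prior counts, and each pup left out. Python 3.11.15, scipy 1.17.1 and R 4.3.3 were used. The members and lists were chosen with earlier results of these data known. Named genes were the 5 members, the 2 genes next above and below each in mean CPM, the leading genes of the Dlk1 to Dio3 and Sfmbt2 regions, genes within 1 Mb, genes with a shared seed, other imprinted loci and fixed cell type markers.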

Additional observations from a re-analysis of the deposited data

How the results depend on the processing

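Of the results on levels, ratios and detection, most moved by less than the spread between the pups. For ratios the measure was the counting interval. Leaving out a pup could not count as a move of a level, because with 2 pups each lies nearer the mean than the SD. The exceptions follow. With both-strand counts the summed level of the 5 genes was 19014 CPM and that of Mir335 16336 CPM, because the total grew. With Mir143 left out of the total they were 41327 and 35506 CPM, and with all reads as the total 12834 and 11026 CPM. These choices change the denominator alone; the levels of the 4 other genes moved by the same factors when Mir143 was left out or all reads were taken. The log2 ratio of Mir335 was 0.011 with TMM library sizes and 0.013 with DESeq2 size factors, and those of the 4 other genes stayed between -0.394 and -0.174 under the alternatives. The number of genes past 1.5-fold was 58 of 362; it was 11 of 248 at 100 counts, 147 of 501 with 1 count in each library as the only filter, and 26 at 2-fold. Leaving out each pup gave 17161 to 16585 CPM for Mir335 and 19729 to 19548 CPM for the sum, and all 5 genes were detected in each. No paired analysis was possible because the libraries form 1 group. Mir675, with 221 counts in all, is limited by depth, and 2 littermates do not cover differences between litters.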

Other observations

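Other miRNA genes of imprinted loci, listed from textbook knowledge, were mostly not detected in newborn bladder, like most genes of the table. Of 16 such genes in the table, Mir184, Mir489, Mir653 and the Mir344 genes, 1 was detected, as were 17% of all genes in the table. It was Mir184, a miRNA of the cornea and brain, with 30 counts in pup 2 and 62 in pup 1, or 8.28 ± 0.043 CPM (SD, n = 2). That is below Mir675 at 19.4 ± 2.15 CPM. Mir653, in the calcitonin receptor gene Calcr, had 4 counts in pup 2 and 2 in pup 1, and Mir489 of the same gene had 0 counts in pup 2 and 1 in pup 1. No Mir344 gene had more than 3 counts in either pup. Reads that mapped to several places are in none of these counts. A count of 0 for a gene with near-identical copies therefore may not mean absence.

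Relaxed to the bases 2 to 7, the seeds of 4 of the 10 mature strands occurred in 1 other mature sequence each. Mir6986, which shares these bases with miR-335-3p, had 0 counts in pup 2 and 1 in pup 1. Mir3110, which shares them with miR-483-3p, had 2 counts in pup 2 and 1 in pup 1, and Mir5621, which shares them with miR-296-5p, had none in either pup. Mir7646, which shares them with miR-335-5p, was not among the genes of the count tables matched to a symbol, so no level is given.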
